A study of Homo sapiens with 9 samples.

Results

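The 8 genes described here encode proteins of the mucus layer or of the cells that make it: the mucins MUC19 and MUC13, the trefoil factors TFF1, TFF2 and TFF3, the protease inhibitors PI3 and SLPI, and the disulfide isomerase AGR2. They are 8 of the 63677 gene identifiers counted in the human hepatocellular carcinoma line HuH-7, and all 8 were among the 18237 genes with enough counts to test (a minimum of 1 CPM, which scales counts to a common library size, in 2 of the 9 libraries). The genes were chosen from measured values of these same libraries, because several were low with arsenic or caffeine. Their values against the untreated control in the arsenic and caffeine libraries are therefore given as a description with no test. Libraries used in that choice, the control among them, also enter some acetaminophen and exosome pairs and the tested terms. Those results are therefore not independent of the choice.

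Each of 9 conditions was sequenced as 1 library of ribosome-depleted total RNA. The treated cultures received acetaminophen (10 mM) with caffeine (2 mM), caffeine alone (2 mM), acetaminophen (10 mM) with exosomes prepared from serum (1 ml), exosomes alone, acetaminophen alone (10 mM), arsenic (5 µM) with copper (5 µM), or arsenic on its own at 5 µM or 15 µM, and the last culture was an untreated control. No genetic change separates the groups, and all 9 come from the same tumour line, so each value stands for 1 culture of 1 line. No exposure time is given in the sources used here. With 1 library per condition, a difference between 2 conditions has no replicate check, and the 95% intervals given below cover counting error only.

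Counts on genes ranged from 658725 (acetaminophen with exosomes) through 951816 (untreated control) to 8227906 (caffeine). The shallow libraries limit what can be seen: 3 counts, taken as the detection floor, correspond to 3.82 CPM with acetaminophen and exosomes, 2.90 CPM in the control and 0.351 CPM with caffeine. Hepatocyte markers (ALB, APOA1, APOB, TTR, AFP, SERPINA1, TF and FGB) were all detected, with summed levels between 8558 CPM at 15 µM arsenic and 27880 CPM with acetaminophen. Other cell types that also make these proteins were checked by marker lists. Gastric markers, a list that holds TFF1 itself, summed to between 3.51 and 53.2 CPM, with GKN1 at 0 in all 9 libraries. Biliary markers, which include EPCAM and KRT19, summed to between 175 and 446 CPM. Airway secretory markers never summed above 0.896 CPM, with SCGB1A1 at 0 throughout. Red cell and platelet markers, which serum could carry, never summed above 0.965 CPM, with HBA2, PPBP and PF4 at 0 in every library. Leukocyte markers summed to between 27.6 and 272 CPM. That list holds LYZ, which alone ran from 26.2 to 272 CPM and is also counted below among goblet and secretory cell products. Fibroblast markers summed to between 21.8 and 65.1 CPM.

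Mucus is a gel of very large glycoproteins, the mucins, which are folded and crosslinked in the endoplasmic reticulum and Golgi, packed into granules and released onto epithelial surfaces. Gel-forming mucins build the layer, membrane mucins stay on the cell, trefoil factors are released with mucins and help surfaces repair, and small inhibitors protect the tissue from neutrophil proteases. Hepatocytes are not mucus-producing cells, whereas trefoil factors, AGR2 and MUC13 are known from stomach, intestine and several adenocarcinomas.

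Promoter sequence (250 bases before to 50 bases after the annotated start, RefSeq, GRCh38.p14) was available for 3 of the 8 genes, which include the pair that was lowest with caffeine (MUC19 and AGR2) and one that was high there (MUC13). The sequences are shown so that the 3 start regions can be read side by side. They are the MUC19 window at chr12:40393144-40393443 on the plus strand, the MUC13 window at chr3:124934702-124935001 on the minus strand and the AGR2 window at chr7:16804950-16805249 on the minus strand. Capitals mark matches to 8 short motifs searched on both strands.
MUC19: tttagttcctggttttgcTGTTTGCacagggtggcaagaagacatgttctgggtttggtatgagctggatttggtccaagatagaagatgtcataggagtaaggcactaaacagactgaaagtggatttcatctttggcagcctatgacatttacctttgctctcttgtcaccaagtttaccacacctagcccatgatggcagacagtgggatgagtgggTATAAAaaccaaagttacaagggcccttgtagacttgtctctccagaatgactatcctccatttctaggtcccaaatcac
MUC13: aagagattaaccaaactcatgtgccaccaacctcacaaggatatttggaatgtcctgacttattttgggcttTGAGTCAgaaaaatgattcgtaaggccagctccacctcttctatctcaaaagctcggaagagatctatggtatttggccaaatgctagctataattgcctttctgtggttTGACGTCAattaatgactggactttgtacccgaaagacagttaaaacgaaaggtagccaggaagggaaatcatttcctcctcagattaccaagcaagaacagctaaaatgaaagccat
AGR2: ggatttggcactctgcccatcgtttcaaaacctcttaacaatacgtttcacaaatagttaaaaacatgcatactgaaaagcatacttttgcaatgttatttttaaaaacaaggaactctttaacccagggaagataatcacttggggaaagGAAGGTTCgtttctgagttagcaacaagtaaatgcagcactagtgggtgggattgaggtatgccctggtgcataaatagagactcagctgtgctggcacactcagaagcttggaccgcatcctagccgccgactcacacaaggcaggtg
The MUC19 window holds TATAAA at position -30 from the start, a string found in 11.5% of 35116 promoters of the same length, and the forkhead core TGTTTGC at -232, found in 3.89%. In the MUC13 window stand the full cyclic AMP response element TGACGTCA at -68, found in 1.85% of promoters, and TGAGTCA, a match to the AP-1 string TGANTCA, at -178, found in 7.71%. The AGR2 window holds GAAGGTTC at -99, a match to the heat shock core GAANNTTC, which 6.77% of promoters carry. None of the 3 windows held the remaining strings searched, which were CCAAT (34.6% of promoters), TGTTTAC (3.42%) and the antioxidant core TGACNNNGC (13.3%), and the matches are letters in a sequence, not measured sites. TFF1, TFF2, TFF3, PI3 and SLPI are named without a promoter.

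MUC19 encodes a gel-forming mucin known from salivary and airway glands. Its level, scaled by TMM as all CPM values here, was 0.754 CPM with acetaminophen and caffeine, 0.585 CPM with caffeine, 15.3 CPM with acetaminophen and exosomes, 35.8 CPM with exosomes and 7.72 CPM with acetaminophen. It was 0.371 CPM with arsenic 5 µM and copper, 0 at 5 µM arsenic and 0.359 CPM at 15 µM arsenic, against 9.65 CPM in the untreated control. Both exosome libraries were thus at the top and the 5 caffeine and arsenic libraries at the bottom, all 5 resting on 5 counts or fewer. These are bulk libraries, in which fewer cells making a transcript and less of it per cell cannot be told apart. An antisense gene that overlaps MUC19 had 1 count over all 9 libraries.

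MUC13, a membrane mucin of the digestive tract, had a different order. It measured 21.3 CPM with acetaminophen and caffeine, 90.3 CPM with caffeine, 1.27 CPM with acetaminophen and exosomes, 15.5 CPM with exosomes and 12.6 CPM with acetaminophen. The arsenic libraries gave 5.56 CPM with copper, 3.83 CPM at 5 µM and 42.0 CPM at 15 µM, against 10.6 CPM in the control. Caffeine and arsenic at 15 µM stood apart from the other 7 libraries at the high end, and the lowest library, acetaminophen with exosomes, held 1 count.

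The trefoil factors are small, disulfide-rich secreted peptides; TFF1 and TFF2 are known from gastric mucous cells and TFF3 from intestinal goblet cells. TFF1 measured 42.4 CPM with acetaminophen and caffeine, 24.8 CPM with caffeine, 2.54 CPM with acetaminophen and exosomes, 5.38 CPM with exosomes and 2.81 CPM with acetaminophen. With arsenic it was at 10.0 CPM with copper, 2.13 CPM at 5 µM and 45.5 CPM at 15 µM, against 13.5 CPM in the control. The 2 caffeine libraries and arsenic at 15 µM were therefore above the control and the other 5 below it.

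TFF2 measured 28.7 CPM with acetaminophen and caffeine, 101 CPM with caffeine, 6.36 CPM with acetaminophen and exosomes, 11.9 CPM with exosomes and 42.8 CPM with acetaminophen. All 3 arsenic libraries were low, at 3.34 CPM with copper, 1.28 CPM at 5 µM and 0.717 CPM at 15 µM, against 16.4 CPM in the control. TFF1 and TFF2 thus stood at opposite ends at 15 µM arsenic, where TFF1 had 127 counts and TFF2 had 2.

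TFF3 never exceeded 10.2 CPM. It measured 9.42 CPM with acetaminophen and caffeine, 8.54 CPM with caffeine, 10.2 CPM with acetaminophen and exosomes, 3.88 CPM with exosomes and 1.40 CPM with acetaminophen. In the arsenic libraries it was at 2.60 CPM with copper, 0.425 CPM (1 count) at 5 µM and 4.66 CPM at 15 µM, against 4.83 CPM (5 counts) in the control. When the 9 libraries were ordered by TFF3, none of the 8 steps between neighbours had an interval that excluded no change.

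PI3, or elafin, is a secreted inhibitor of neutrophil elastase and proteinase 3. It measured 21.5 CPM with acetaminophen and caffeine, 11.6 CPM with caffeine, 12.7 CPM with acetaminophen and exosomes, 11.1 CPM with exosomes and 28.8 CPM with acetaminophen. The 3 arsenic libraries were the lowest, at 2.23 CPM with copper, 0.851 CPM at 5 µM and 0 at 15 µM, against 18.3 CPM in the control. One step in the order of PI3 levels was larger than its counting error, that between exosomes alone and arsenic with copper, so the 6 libraries without arsenic form one run of overlapping neighbours above the 3 with it.

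SLPI, a second inhibitor with the same WAP domain, acts on neutrophil elastase and cathepsin G. Its level was 26.0 CPM with acetaminophen and caffeine, 5.85 CPM with caffeine, 15.3 CPM with acetaminophen and exosomes and 9.56 CPM with exosomes, and it had no counts with acetaminophen alone. It stood at 2.60 CPM with arsenic and copper, 0 at 5 µM and 2.87 CPM at 15 µM, against 6.75 CPM in the control (7 counts). No neighbouring step in the order of SLPI was larger than its counting error.

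AGR2 is a protein disulfide isomerase of the endoplasmic reticulum that intestinal mucin production in mice depends on, and it was the one gene highest in the untreated control. It measured 0.942 CPM with acetaminophen and caffeine, 1.17 CPM with caffeine, 47.1 CPM with acetaminophen and exosomes, 76.7 CPM with exosomes and 10.5 CPM with acetaminophen. The arsenic libraries held 21.9 CPM with copper, 7.23 CPM at 5 µM and 10.4 CPM at 15 µM, against 115 CPM in the control. For AGR2, 5 of the 8 neighbouring steps exceeded counting error, compared with 3 for TFF2, 2 each for MUC19, MUC13 and TFF1, 1 for PI3 and none for TFF3 and SLPI. These numbers depend on the counts of each gene and on library depth, so they do not rank the genes by how much they varied.

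**Figure D1:**
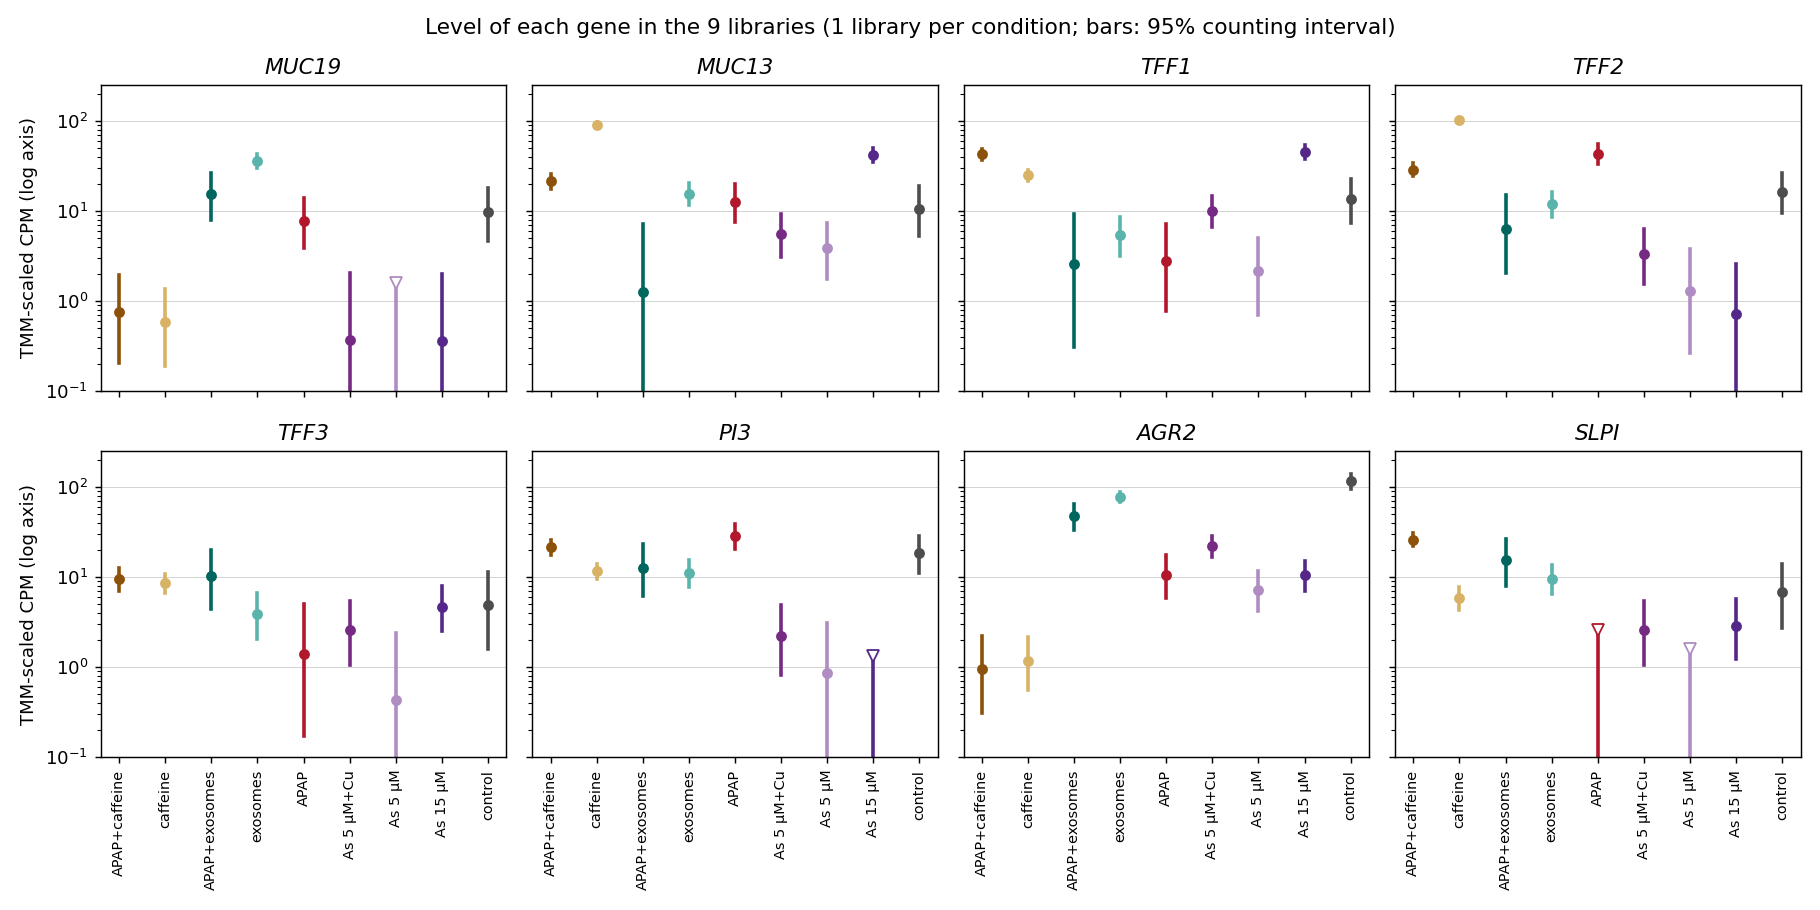
Level of each of the 8 genes in the 9 libraries, as TMM-scaled CPM on a log axis, with APAP standing for acetaminophen and As and Cu for arsenic and copper. Points are single libraries, bars are 95% Poisson intervals cut at the bottom of the axis, and open triangles mark the upper limit of a library with 0 counts; AGR2 is highest in the control at 115 CPM, MUC13 and TFF2 in caffeine at 90.3 and 101 CPM, and MUC19 with exosomes at 35.8 CPM.

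The make-up of the group changed from library to library when levels were divided by exon length (CPM per kb), the scale on which genes can be compared. In the untreated control AGR2 led with 40.4 CPM per kb, 29.8% of the summed level of the 8 genes (135 CPM per kb), followed by PI3 with 31.8. With exosomes AGR2 also led, at 28.3% of a sum of 95.3 CPM per kb. TFF2 led with caffeine (122 CPM per kb, 52.9% of 230) and with acetaminophen (51.6 CPM per kb, 44.7% of 115). SLPI came first with acetaminophen and exosomes (25.6 CPM per kb, 29.8% of 86.1). TFF1 came first with acetaminophen and caffeine (37.2% of 207 CPM per kb) and in all 3 arsenic libraries. There its share was 43.4% of 41.9 CPM per kb with copper, 35.5% of 10.9 at 5 µM and 76.5% of 108 at 15 µM. The sum at 5 µM arsenic rested on 37 counts and is the lowest of the 9 libraries. MUC19 was the lowest of the 8 genes per kb in the control, at 0.327 CPM per kb over an annotated exon length of 29488 bases.

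**Figure D2:**
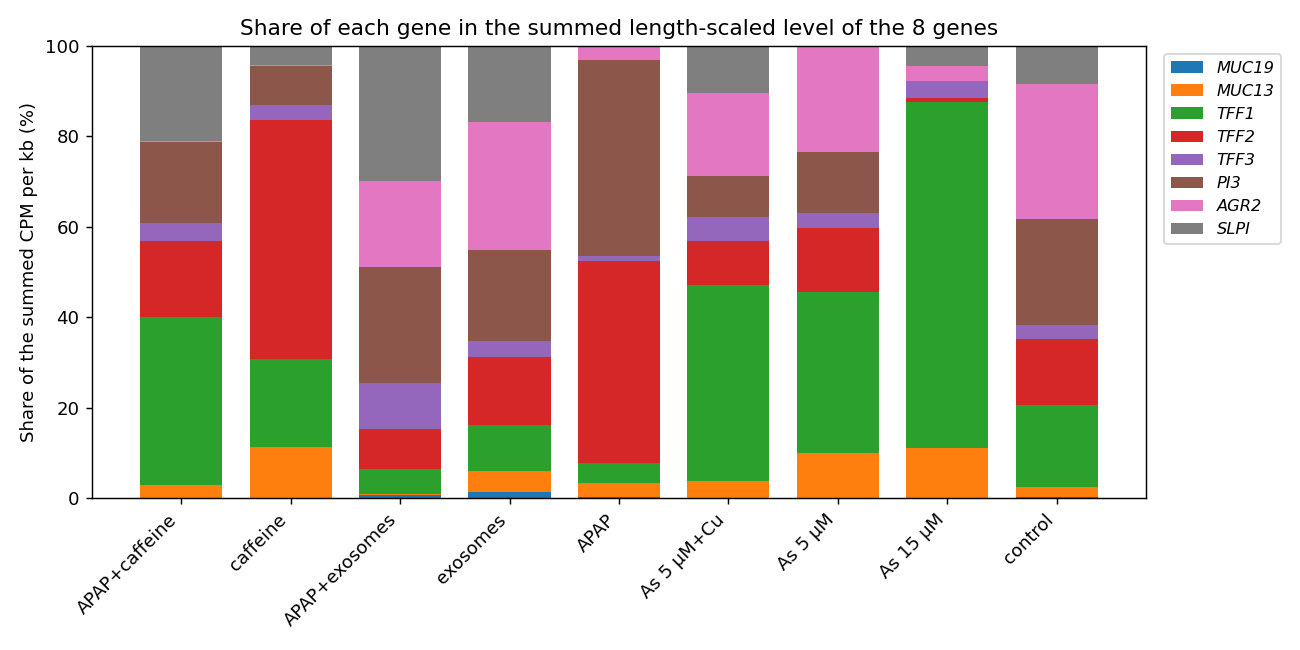
Share of each gene, in percent, in the summed CPM per kb of the 8 genes, 1 bar per library (APAP, acetaminophen; As, arsenic; Cu, copper). TFF1 takes 76.5% at 15 µM arsenic, TFF2 takes 52.9% with caffeine, and AGR2 takes 29.8% in the control.

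Acetaminophen could be compared on 3 backgrounds that share no library. The comparison libraries of 2 of them, the control and caffeine alone, took part in choosing the genes. The genes were called apart between 2 libraries when they differed at least 2 times, with 0.5 prior counts added, and the 95% interval of the ratio excluded no change. In acetaminophen against the untreated control 3 of 8 were lower (TFF1, AGR2 and SLPI) and 1 was higher (TFF2), beside 12.1% lower and 13.0% higher of the 18237 genes tested. AGR2 was 10.9 times lower (interval 6.35 to 20.1) and TFF1 was 4.81 times lower (1.51 to 20.1). SLPI, with 0 counts against 7, was at least 3.21 times lower (lower 95% limit 1.98), and TFF2 was 2.61 times higher (1.51 to 4.77). Here and below, a value after "at least" sets the empty library to 3 counts and takes the other count as it stands, and the limit in parentheses adds the counting error of both. After removal of a trend with GC content and length, TFF1 and SLPI were no longer apart. PI3 then joined TFF2 as higher, with log2 ratios of 1.79 for PI3 (0.63 before) and 2.49 for TFF2 (1.35 before).

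On the exosome background, acetaminophen with exosomes against exosomes gave 2 of 8 lower (MUC19 and MUC13) and 0 higher, beside 5.17% and 5.22% of all genes. MUC13 was 12.2 times lower, with 1 count against 52 and a wide interval of 2.10 to 491. MUC19 was 2.35 times lower (1.30 to 4.67), a difference no longer apart once the GC and length trend was removed. TFF3 was 2.62 times higher (0.942 to 6.82), which DESeq2 size factors and total-count scaling put past the rule for apart. AGR2 was 1.63 times lower (1.15 to 2.37), short of 2 times.

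On the caffeine background, acetaminophen with caffeine against caffeine gave 2 of 8 lower (MUC13 and TFF2) and 1 higher (SLPI), beside 13.0% and 12.6% of all genes. Both libraries are deep, so the intervals are narrow: MUC13 was 4.24 times lower (3.48 to 5.21), TFF2 was 3.53 times lower (2.97 to 4.23) and SLPI was 4.45 times higher (3.20 to 6.27). TFF1 and PI3 were 1.71 times (1.41 to 2.07) and 1.86 times (1.40 to 2.45) higher. TFF2 and SLPI thus lay on opposite sides of their comparison library without and with caffeine. No member was apart in the same direction on all 3 backgrounds.

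The acetaminophen effect over all 3 pairs was tested as a term of an additive edgeR quasi-likelihood model over the 9 libraries. It called 4 of 18237 genes (0.0219%) at a Benjamini-Hochberg adjusted p under 0.05, none of them among the 8. AGR2 had the smallest p among the 8, with a log2 fold change of -1.54 (SE 0.69, edgeR adjusted p 0.827) and a lower value in all 3 pairs, although the pair on caffeine turned to 0.07 (log2) when the GC and length trend was removed. The AGR2 estimate was -0.52 without the control library and -0.56 without the acetaminophen library. MUC13 followed with -1.58 (SE 0.80, edgeR adjusted p 0.944), lower in 2 of 3 pairs. Its estimate was -2.50 without the acetaminophen library, -2.49 without the control and -1.04 without either exosome library. For the other 6 genes the log2 fold change ran from -0.61 (TFF1) to 0.60 (PI3), with an adjusted p of 1.

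Exosomes prepared from serum were added to untreated and to acetaminophen-treated cells. In exosomes against the untreated control 1 of 8 was lower (TFF1) and 1 was higher (MUC19), beside 1.44% and 3.58% of all genes. MUC19 was 3.71 times higher (1.95 to 7.94), with 120 counts against 10. TFF1 was 2.51 times lower (1.16 to 5.35), and was no longer apart once the GC and length trend was removed. AGR2 was 1.50 times lower (1.19 to 1.87).

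With acetaminophen and exosomes against acetaminophen alone, 3 of 8 were lower (MUC13, TFF2 and PI3) and 3 were higher (TFF3, AGR2 and SLPI), beside 8.89% and 10.2% of all genes. AGR2 was 4.47 times higher (2.39 to 8.77), and SLPI, with 12 counts against 0, was at least 7.25 times higher (5.04). TFF3 was 7.25 times higher on 8 counts against 2 (1.45 to 70.1) and was no longer apart after the GC and length trend was removed. TFF2 was 6.73 times lower (2.73 to 21.5), MUC13 was 9.93 times lower on 1 count against 18 (1.57 to 414), and PI3 was 2.26 times lower (1.12 to 5.07). This pair shares the shallowest library with the pair on the exosome background.

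The exosome term of the same edgeR model called no gene (0% of 18237), with 113 genes at an unadjusted p under 0.05 and 82 by DESeq2, which also called none. Both numbers, like those of the acetaminophen by exosome term below, are under a share of 0.05 of the genes tested. The lack of a call is therefore not read as a lack of effect. TFF2 had the smallest unadjusted p of the 8 (0.0362), with a log2 fold change of -1.83 (SE 0.84, edgeR adjusted p 1) and a lower value in both pairs. The TFF2 estimate was -0.24 without the acetaminophen library and -3.07 without the control. MUC19 was at 1.50 (SE 0.85, edgeR adjusted p 1), higher in both pairs, and at 0.84 without the library of exosomes alone. An acetaminophen by exosome term, which asks whether the acetaminophen effect differs with exosomes, called 0% of genes (87 at an unadjusted edgeR p under 0.05, 63 by DESeq2, and none called by DESeq2). Its estimates for the 8 genes ran from -2.54 (MUC13, SE 1.94) to 1.93 (TFF3, SE 1.89), each with an edgeR adjusted p of 1.

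**Figure D3:**
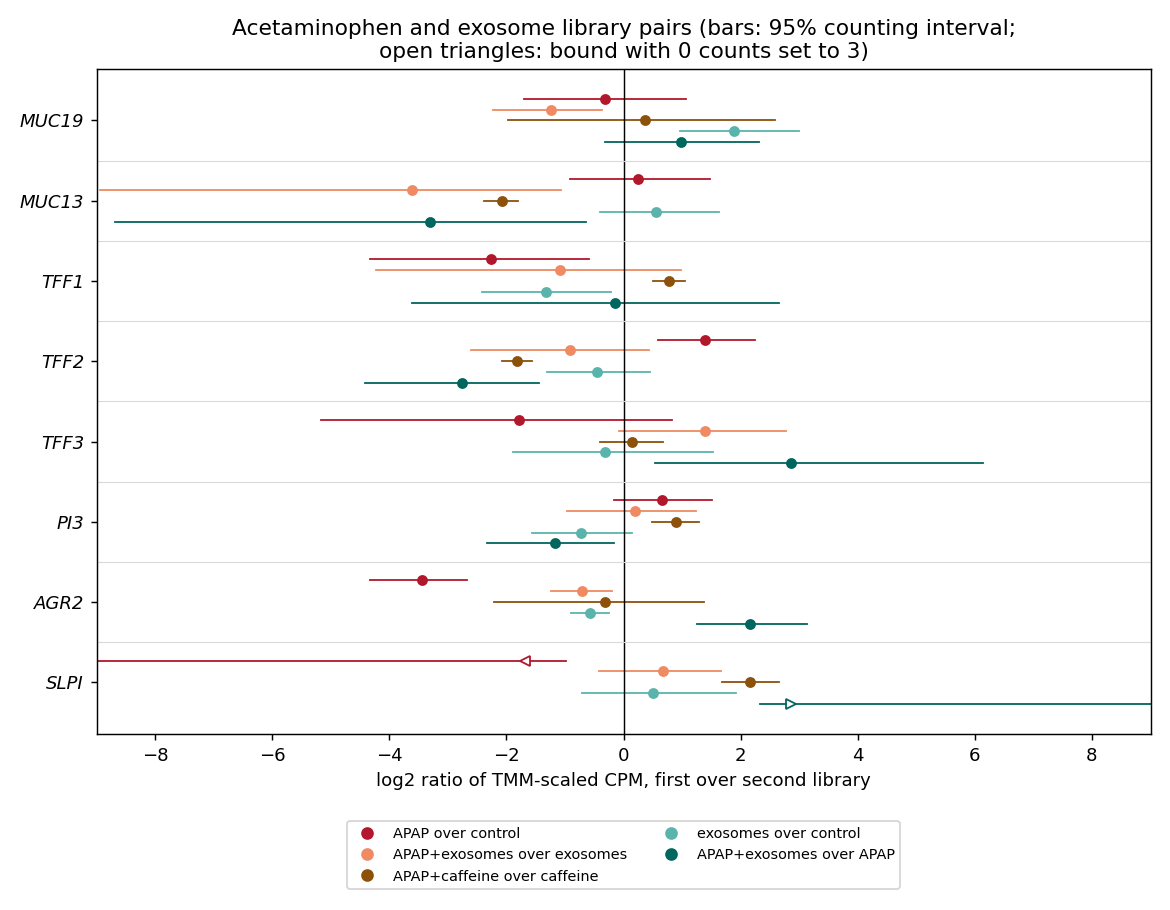
Log2 ratio of TMM-scaled CPM for each gene in the 3 acetaminophen pairs and the 2 exosome pairs (APAP, acetaminophen), the first named library over the second. Bars are 95% counting intervals cut at the axis ends and open triangles are bounds where a library had 0 counts; TFF2 lies right of 0 for acetaminophen over control (2.61 times higher) and left of it on caffeine (3.53 times lower), and SLPI does the opposite.

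Caffeine pairs took part in choosing the genes and are described without a test. In caffeine against the untreated control 2 of 8 were lower (MUC19 and AGR2) and 2 were higher (MUC13 and TFF2), beside 8.63% and 11.6% of all genes. AGR2 was 98.1 times lower (51.5 to 210), with 10 counts in the deepest library against 119 in the control, and MUC19 was 16.5 times lower (5.14 to 61.5). MUC13 was 8.51 times higher (4.73 to 17.1) and TFF2 was 6.17 times higher (3.83 to 10.6). TFF1 was 1.84 times higher (1.07 to 3.42), and the intervals of TFF3, PI3 and SLPI held no change.

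With acetaminophen and caffeine against acetaminophen, 2 of 8 were lower (MUC19 and AGR2) and 3 were higher (TFF1, TFF3 and SLPI), beside 15.0% and 18.8% of all genes. AGR2 was 11.2 times lower (3.86 to 39.3) and MUC19 was 10.2 times lower (3.04 to 44.1), from acetaminophen levels below or near those of the control. TFF1 was 15.1 times higher (5.82 to 55.9), SLPI was at least 12.4 times higher (9.91) and TFF3 was 6.71 times higher on 50 counts against 2 (1.76 to 57.0). MUC13 was 1.69 times higher (1.02 to 2.95), so it did not repeat the size of its difference in caffeine alone. TFF2 was 1.49 times lower (1.09 to 2.02), in the opposite direction to its difference in caffeine alone. After the GC and length trend was removed, TFF3 was no longer apart, and TFF2 and PI3 were lower by the same rule, with log2 ratios of -1.44 (TFF2, -0.59 before) and -1.25 (PI3, -0.43 before). Intestinal markers (VIL1, CDX2, CDH17, LGALS4 and FABP2), 4 of 5 of them at 1 CPM or more in some library, summed to 694 CPM with caffeine, the highest of the 9 libraries, and 451 CPM in the control, where MUC13 and TFF2 were lower. Over the other 7 libraries they ranged from 121 CPM at 5 µM arsenic to 532 CPM with exosomes. With acetaminophen and caffeine these markers summed to 326 CPM, below the control, although MUC13 and TFF2 were above the control there. Whether a shift in such cells or in such a programme had a part in these levels was not tested.

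Arsenic pairs also took part in choosing the genes, so their counts are a description from which nothing is read. Relative to the untreated control, all 8 genes were lower at 5 µM arsenic and 0 were higher, beside 15.0% and 16.4% of all genes. The median log2 ratio of the 8 was -3.73, or -3.21 with libraries at 0 set to the 3-count floor, while over all genes tested it was -0.22 and, for genes above that floor in either library, 0.11. PI3 was 21.6 times lower (5.20 to 191) and AGR2 was 15.9 times lower (9.51 to 28.2). TFF2 was 12.9 times lower (3.72 to 68.5), TFF1 was 6.35 times lower (2.16 to 22.5) and MUC13 was 2.77 times lower (1.05 to 7.57). MUC19 was at least 7.56 times lower (5.09) and SLPI at least 5.29 times lower (3.27), both at 0. TFF3 rested on 1 count against 5 (11.3 times lower, 1.27 to 537) and was no longer apart once the GC and length trend was removed. Sums of intestinal and biliary markers were below the control in all 3 arsenic libraries. The intestinal markers summed to 197 CPM with copper, 121 CPM at 5 µM and 151 CPM at 15 µM, against 451 CPM in the control, and these were the lowest 3 of the 9 libraries. The biliary markers summed to 372 CPM with copper, 175 CPM at 5 µM and 247 CPM at 15 µM, against 446 CPM in the control. For biliary markers the control was the highest of the 9 libraries, so a sum below it was not particular to arsenic. They summed to 202 CPM with caffeine, 191 CPM with acetaminophen and caffeine, 284 CPM with acetaminophen and 429 CPM with exosomes. The gastric markers, which include TFF1, summed to 13.35 CPM with copper, 3.828 CPM at 5 µM and 48.05 CPM at 15 µM, against 13.51 CPM in the control. The part of these markers in the levels of the 8 genes was not tested.

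At 15 µM arsenic the group split: 4 of 8 were lower than in the control (MUC19, TFF2, PI3 and AGR2) and 2 were higher (MUC13 and TFF1), beside 14.4% and 16.5% of all genes. PI3, with 0 counts against 19, was at least 17.0 times lower (12.6). TFF2 was 22.9 times lower (5.43 to 204), MUC19 was 26.9 times lower on 1 count against 10 (3.83 to 1168) and AGR2 was 11.0 times lower (7.31 to 17.2). MUC13 was 3.95 times higher (2.13 to 8.14) and TFF1 was 3.37 times higher (1.94 to 6.34). TFF3 and SLPI had intervals that held no change.

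The 15 µM and 5 µM libraries can be set against each other without the control, although arsenic levels took part in choosing the genes. At 5 µM AGR2 had 17 counts and the others 9 or fewer. Few of the 8 could therefore be called lower at 15 µM. None of the 8 was lower at 15 µM and 4 were higher (MUC13, TFF1, TFF3 and SLPI), beside 17.5% and 19.6% of all genes. TFF1 was 21.4 times higher at 15 µM (8.94 to 67.1), with 127 counts against 5, and MUC13 was 11.0 times higher (5.58 to 24.6), with 117 counts against 9. TFF3 was 11.0 times higher on 13 counts against 1 (1.65 to 466), a difference lost when the GC and length trend was removed, and SLPI, with 8 counts against 0, was at least 2.25 times higher (1.44). AGR2 was 1.44 times higher with an interval of 0.764 to 2.79, and was apart under total-count scaling. MUC19, TFF2 and PI3 were at or under the 3-count floor in both libraries, so no ratio is given.

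Copper at 5 µM was added to arsenic at 5 µM in 1 culture. Against the untreated control that library had 4 of 8 lower (MUC19, TFF2, PI3 and AGR2) and 0 higher, beside 7.10% and 9.26% of all genes. AGR2 was 5.25 times lower (3.81 to 7.30), PI3 was 8.24 times lower (3.16 to 25.2), TFF2 was 4.91 times lower (2.07 to 12.5) and MUC19 was 26.0 times lower on 1 count against 10 (3.70 to 1129). Against arsenic at 5 µM alone, 0 were lower and 3 were higher (TFF1, AGR2 and SLPI), beside 13.7% and 16.5% of all genes. The few counts at 5 µM left little room for a lower call here as well. TFF1 was 4.71 times higher (1.79 to 15.7), AGR2 was 3.03 times higher (1.74 to 5.54) and SLPI, with 7 counts against 0, was at least 2.04 times higher (1.26). Total-count scaling added TFF2 and TFF3 to those higher. No library had copper without arsenic, so copper alone is not described.

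**Figure D4:**
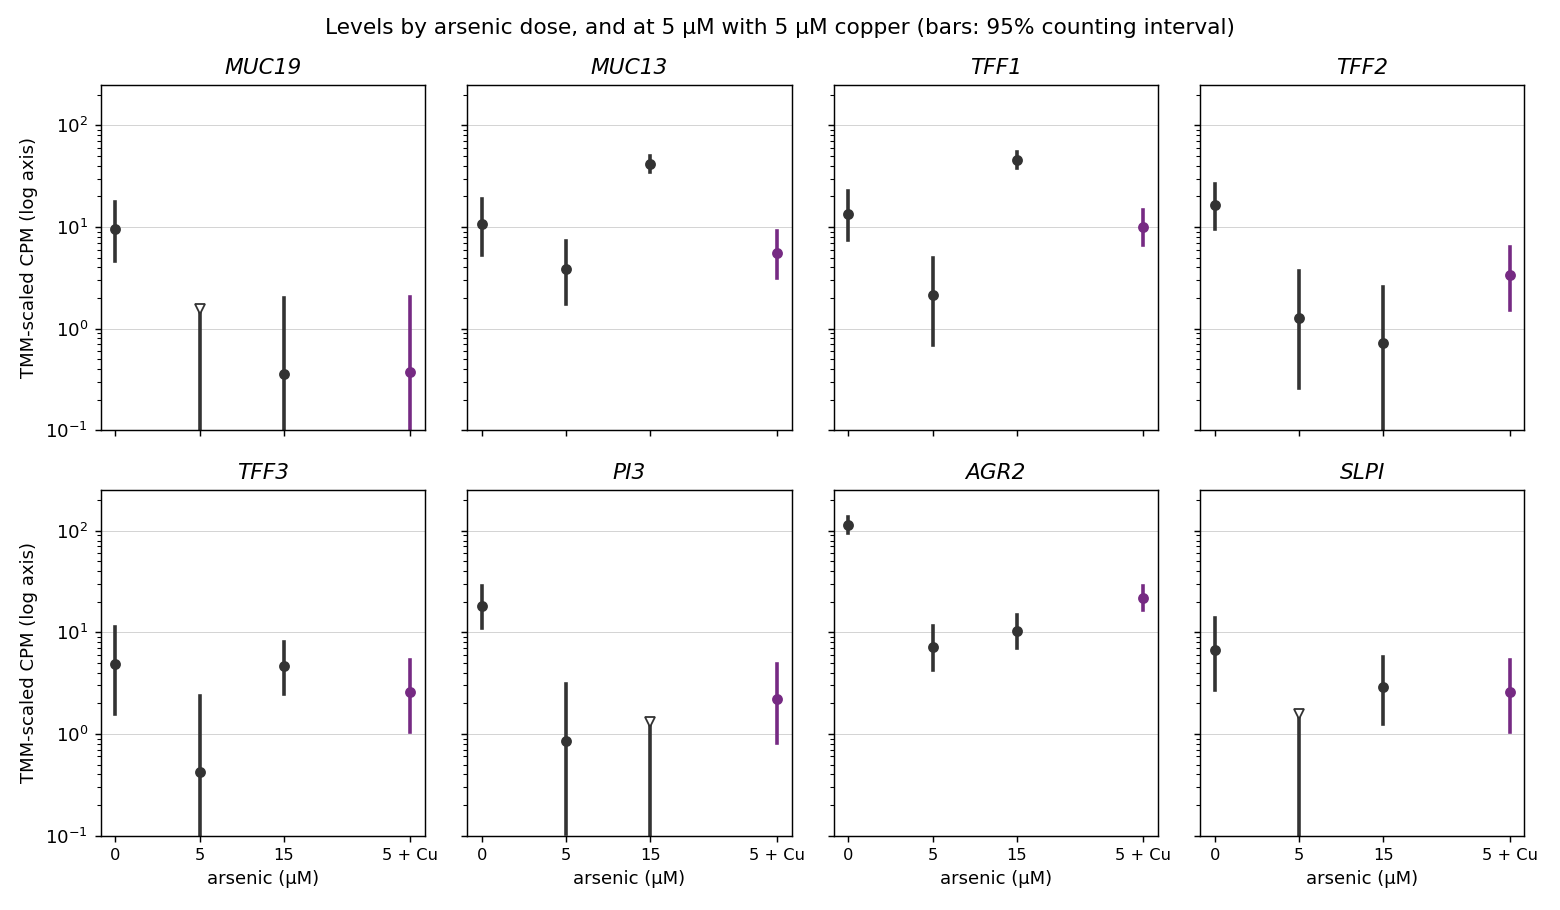
Level of each gene at 0, 5 and 15 µM arsenic and at 5 µM with 5 µM copper (Cu), as TMM-scaled CPM on a log axis, 1 library each, with doses drawn as evenly spaced categories. Bars are 95% Poisson intervals and open triangles mark upper limits at 0 counts; TFF1 and MUC13 measure 13.5 and 10.6 CPM at 0 µM, 2.13 and 3.83 CPM at 5 µM, and 45.5 and 42.0 CPM at 15 µM, whereas TFF2, PI3 and MUC19 stay at or below 1.28 CPM at both doses.

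Lists of related genes were read beside the 8 by the same rule, and none of the lists held a gene that the acetaminophen or exosome term called. Other mucins were scarce: 11 of 17 were tested. MUC16, a large membrane mucin, had 1 count with caffeine, against 6 in the control (49.5 times lower, with an interval of the ratio from 0.000439 to 0.167). MUC15, another membrane mucin, was higher there, at 18.6 CPM with caffeine and 1.93 CPM in the control. Both were apart in the same directions at 5 µM and 15 µM arsenic. Thus 1 of the 11 tested mucins was lower and 1 higher in each of these 3 pairs. The shares of all genes were 8.63% lower and 11.6% higher with caffeine, 15.0% and 16.4% at 5 µM, 14.4% and 16.5% at 15 µM. At 5 µM arsenic MUC15 stood at 35.7 CPM against 1.93 CPM in the control (18.5 times higher, 4.97 to 155), and MUC16 had 0 counts against 6. The control held 2 counts of MUC15, its lowest level of the 9 libraries, and 6 of MUC16, its highest level. MUC15 was also apart as higher than the control with acetaminophen (7.27 times) and with exosomes (4.80 times). MUC16 was also apart as lower with acetaminophen (8.25 times, 1 count against 6). These calls were thus not particular to caffeine and arsenic. With arsenic and copper 2 mucins were lower than in the control, MUC16 and OVGP1, and 0 were higher, beside 7.10% and 9.26% of all genes. Over the 11 tested mucins the median log2 ratio was -2.31 with caffeine and -1.34 at 5 µM arsenic, and -0.84 and -0.90 over the 6 and 4 of them above the 3-count floor. Of the WAP-domain inhibitors related to PI3 and SLPI, 2 of 14 with an identifier were tested. ANOS1, a secreted WAP-domain glycoprotein, was at 7.92 CPM with acetaminophen and caffeine, against 0.585 CPM with caffeine and 0.702 CPM with acetaminophen.

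Of 13 tested products of goblet and secretory cells, 3 were lower with arsenic and copper, 4 at 5 µM and 5 at 15 µM arsenic, relative to the control, beside 7.10%, 15.0% and 14.4% of all genes. None was higher in any of the 3 pairs, and most of the list was not apart. The list's median log2 ratio was -1.38, -2.56 and -2.32 in these pairs, beside -0.03, -0.22 and -0.16 over all genes tested, or -1.62, -2.77 and -2.43 over the 8, 7 and 7 genes above the floor with zeros set to it. TSPAN8, a tetraspanin of digestive epithelia, was at 8.90 CPM with arsenic and copper, 2.98 CPM at 5 µM and 1.43 CPM at 15 µM, against 42.5 CPM in the control. Some abundant members were not below the control. S100P, a calcium-binding protein, was at 236, 272 and 401 CPM in the same order, against 213 CPM in the control. SPINK1 was at 209.6 and 133.5 CPM with copper and at 5 µM but 362 CPM at 15 µM, against 217 CPM in the control. Neither was called higher. With caffeine 3 were lower and 2 higher than in the control, beside 8.63% and 11.6% of all genes. S100P was at 55.2 CPM with caffeine and 213 CPM in the control, while the goblet cell lectin ZG16 was at 21.1 CPM with caffeine and 5.79 CPM in the control. With acetaminophen added to caffeine, 4 were lower and 1 was higher, beside 13.0% and 12.6% of all genes. ZG16 was then at 0.377 CPM against 21.1 CPM with caffeine alone, and PIGR, the receptor that carries antibodies across epithelia, at 0.754 CPM against 9.13 CPM.

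Among the enzymes that attach and extend mucin sugars, 20 were tested. With acetaminophen against the control 1 was lower and 8 were higher, beside 12.1% and 13.0% of all genes, with a median log2 ratio of 0.98 beside -0.20 over all genes tested. The other backgrounds did not repeat this. On exosomes 1 was lower and 2 were higher, beside 5.17% and 5.22% of all genes, with a median of 0.07. On caffeine 4 were lower and 3 were higher, beside 13.0% and 12.6% of all genes, with a median of -0.30. GALNT1, which starts O-glycosylation, was at 277 CPM with acetaminophen and 61.8 CPM in the control. With acetaminophen and exosomes against acetaminophen 6 were lower and 0 higher, beside 8.89% and 10.2% of all genes. With caffeine against the control 1 was lower and 5 were higher, beside 8.63% and 11.6% of all genes, among them the branching enzyme GCNT1 at 42.1 CPM, against 1.93 CPM in the control. FUT3, a fucosyltransferase, was the lower one, at 0.819 CPM against 10.6 CPM. At 5 µM arsenic 1 was lower and 4 were higher, beside 15.0% and 16.4% of all genes, and at 15 µM 4 were lower and 2 higher, beside 14.4% and 16.5%. The list's median log2 ratio was 0.46 with caffeine, 0.35 at 5 µM and 0.33 at 15 µM arsenic, beside 0.03, -0.22 and -0.16 over all genes tested. GCNT3, a branching enzyme of mucous tissues, was at 72.3 CPM at 5 µM against 13.5 CPM in the control.

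Of 16 tested relatives of AGR2 in the disulfide isomerase family, 4 were lower and 3 higher at 5 µM arsenic against the control, beside 15.0% and 16.4% of all genes, with a median log2 ratio of -0.81 beside -0.22 over all genes tested. PDIA4 was at 48.5 CPM against 455 CPM and PDIA5 at 5.10 CPM against 55.0 CPM, while ERP44, which retains secretory proteins, was at 217 CPM against 30.9 CPM. With caffeine 1 was lower and 2 were higher than in the control, beside 8.63% and 11.6% of all genes. The lower one was ERP29, at 120 CPM against 265 CPM, a difference of 2.22 times (1.94 to 2.54) where that of AGR2 was 98.1 times. AGR3, the closest relative of AGR2 and its neighbour on chromosome 7, reached 0.597 CPM at most and was not tested.

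Of 19 tested transcription factors of secretory epithelium, 9 were lower and 3 higher at 5 µM arsenic than in the control, beside 15.0% and 16.4% of all genes. At 15 µM 8 were lower and 4 higher, beside 14.4% and 16.5%, and with caffeine 1 was lower and 4 were higher, beside 8.63% and 11.6%. The list's median log2 ratios in these 3 pairs were -1.04, -0.91 and 0.44, beside -0.22, -0.16 and 0.03 over all genes tested. XBP1, a factor of the secretory pathway's unfolded protein response, was at 5285 CPM at 5 µM arsenic against 615 CPM in the control, and at 503 CPM with copper added. FOXA3, a forkhead factor of gut and liver, was at 4.68 CPM at 5 µM arsenic against 90.7 CPM in the control. The intestinal factor CDX2 measured 145 CPM with caffeine and 43.4 CPM in the control, and 7.23 CPM and 4.30 CPM at 5 and 15 µM arsenic. KLF4, which goblet cells need in the mouse colon, was at 55.2 CPM at 15 µM arsenic and 2.98 CPM at 5 µM. Between these doses 4 of the 19 factors were lower and 6 higher at 15 µM, beside 17.5% and 19.6% of all genes. The list's median log2 ratio in that pair was -0.25, beside -0.03 over all genes tested.

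Pairs of the 8 genes differed in how alike their levels ran. Over the 9 libraries, Pearson's r of log2(CPM + 0.5) ran from -0.52 (MUC13 and AGR2) to 0.91 (TFF3 and SLPI), with 0.86 for TFF2 and PI3, 0.75 for MUC13 and TFF1 and 0.70 for MUC19 and AGR2. These are descriptions, since all points share the same 9 libraries of unequal depth. The 3 trefoil genes lie side by side on chromosome 21 on the same strand, yet r was 0.12 for TFF1 and TFF2, 0.56 for TFF1 and TFF3 and 0.39 for TFF2 and TFF3. Their next neighbours TMPRSS3 and ABCG1 reached at most 0.425 CPM and 7.92 CPM. PI3 and SLPI are separated on chromosome 20 by SEMG1 and SEMG2, which were at or near 0, and r between them was 0.35.

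Among 11148 genes averaging 5 CPM or more, the closest pattern to each member was found by the same correlation over 9 libraries. For TFF2 it was HNF4A (r 0.96), a nuclear receptor of liver and gut whose level ran from 151 to 1072 CPM, followed by SLC25A20 and USP18. For MUC13 the nearest were PXYLP1 (0.97), ACSL5 and FAM13A, and for TFF1 PRDM15 (0.97), PTPRM and CAMSAP3. TFF3 ran closest to ARID5A (0.97), RNU6ATAC and ETHE1, and SLPI to GAA (0.98), JTB and the same RNU6ATAC. For PI3 they were TCF19 (0.98), PRCP and LIG1, for AGR2 NUTF2 (0.97), COPS5 and ARPC2, and for MUC19 RPL13AP22 (0.95), a ribosomal protein pseudogene whose reads are hard to place, HMGN1 and TTC41P. These genes are the extremes of 11148 correlations over 9 points, and no p is given.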

How the data were processed

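HuH-7 libraries were prepared, per the labels' protocols, from mirVana RNA with RiboMinus depletion and the Ion Total RNA-Seq Kit v2. The values the authors deposited are raw counts for each Ensembl identifier, in 1 file per library; per the submitters' processing notes, TopHat2 2.0.13, GRCh37 and HTSeq 0.6.1 were used. Neither annotation release nor strand setting is given in the sources used here. HTSeq summary lines (42.3% to 70.3% of reads) were left out.

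Tests covered the 18237 genes that reached 1 CPM in 2 or more libraries, with TMM scaling. An additive edgeR 4.0.16 quasi-likelihood model (R 4.3.3) had terms for acetaminophen, exosomes, caffeine and arsenic, with 4 residual degrees of freedom (3 with an interaction) and Benjamini-Hochberg adjustment over all genes; the common dispersion was 0.283. The SE is the absolute log2 fold change over the square root of the F statistic. Arsenic entered as present or absent, whatever the dose, and copper had no term. The p-values measure only the spread that this model leaves between single libraries. That spread takes in differences between arsenic doses and with copper, as well as departures from additivity. Ratios for 12 library pairs carry exact conditional binomial 95% intervals, and levels exact Poisson intervals. The pairs share libraries, the control above all: it enters 6 of the 12. DESeq2 1.42.0, other scalings and a GC and length loess were alternatives.

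GENCODE 29 (GRCh38) gave names, lengths, GC and gene order only. Named list genes were apart and reached 5 CPM in a library, at most 4 per list and pair by size of the log2 ratio, and likeness named 3 genes per member. The 8 genes and the lists were chosen with earlier results of these data known.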

Additional observations from a re-analysis of the deposited data

Results flagged for a closer look

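TFF2, SLPI, MUC13 and TFF1 lay on opposite sides of their comparison library under the same treatment on 2 backgrounds or at 2 doses. None of these differences was tested, since the caffeine and arsenic contrasts took part in choosing the genes. Log2 ratios carry 0.5 prior counts.

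TFF2 had a log2 ratio of 1.35 for acetaminophen against the control and -1.82 for acetaminophen with caffeine against caffeine. SLPI had -4.37 in the first pair, from 0 counts against 7, and 2.14 in the second. MUC13 had -1.46 at 5 µM arsenic against the control and 1.93 at 15 µM. TFF1 had -2.58 at 5 µM and 1.71 at 15 µM. The arsenic ratios share the untreated control, which held 11 counts of MUC13 and 14 of TFF1.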

How the results depend on the processing

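The acetaminophen term called 4 genes with edgeR and 4 with DESeq2 size factors, 49 with DESeq2, 46 without the count filter and 249 with the 6 libraries without arsenic. Leaving out 1 library gave 0 to 179 (14 without arsenic with copper, 118 without arsenic at 15 µM, 179 without arsenic at 5 µM, and 0 without any of the other 6). The exosome term called 0, with DESeq2 also 0, but 3 with the 6 libraries without arsenic, and 0 to 3 with 1 library left out (1 without arsenic at 15 µM, 3 without arsenic at 5 µM). The cause was not tested. The acetaminophen by exosome term called 0 under every setting run and could not be estimated without either exosome library. None of the 8 genes was called by any term under any setting; the lowest adjusted p over the 14 settings of the acetaminophen term was 0.168 for AGR2 and 0.188 for MUC13.

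Of 96 pair ratios, all 96 stayed within their counting interval under DESeq2 size factors, total-count scaling and protein-coding TMM, although some crossed the rule for apart. These were TFF3 with acetaminophen on exosomes (DESeq2 size factors and total counts), AGR2 for 15 against 5 µM arsenic, and TFF2 and TFF3 for copper on arsenic (total counts). The GC and length trend moved 4, the ratios of TFF2 and PI3 with acetaminophen and with caffeine on acetaminophen. Another 4 ratios, none of them apart in either version, changed sign under that trend: MUC13 with acetaminophen (0.23 to -0.06), AGR2 with acetaminophen on caffeine (-0.25 to 0.07), TFF1 with exosomes on acetaminophen (0.01 to -1.23) and TFF3 at 15 µM arsenic (-0.13 to 0.01). Total-count scaling shifted all log2 ratios of 5 µM arsenic against the control by -0.77, and those of 15 µM and of copper against 5 µM by 0.54 and 0.67. Depth limits SLPI, TFF3 and MUC19, among others, which had fewer than 15 counts in most libraries.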
